A study of Mus musculus with 2 samples.

Results

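Recently activated B cells were taken as the B cells of the mediastinal lymph node in which transcripts of at least 2 of the 5 genes Myc, Egr2, Egr3, Nfkbid and Nr4a1 were detected, with 1 or more unique molecular identifiers (UMIs) each. They numbered 1742 of the 18100 cells that passed the filters, with 786 of 9495 cells in the library without butyrate and 956 of 8605 cells in the library with butyrate. A B cell had at least 2 UMIs of Cd79a and Cd79b together and none of Cd3e, Cd3d, Cd3g, Jchain, Mki67 or Top2a, so T cells, plasma cells and dividing cells were left out. This gate held 7307 cells, 3720 without and 3587 with butyrate. Among them, 3059 cells had a UMI of none of the 5 genes and served as the comparison (1680 and 1379 cells, below called 0-marker B cells), and 2506 had a UMI of exactly 1. The cells were thus selected on measured UMIs of the 5 genes, whose values in them are a description and support nothing.

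Both libraries came from wild-type C57/B6J mice that were sensitised with ovalbumin and challenged with it through the nose as a model of allergic asthma. The mediastinal lymph nodes drain the lung. The labels call the library of the mice that received no butyrate OVA and that of the mice that received butyrate, a short-chain fatty acid, C4. The study gives its mice an age range from juvenile to young adult, matched for age and sex within an experiment, and gave sodium butyrate in drinking water or by gavage; which of these regimens applied to these libraries is not stated in the sources used here. Each library pooled the cells of 4 mice, pressed through a strainer and captured with the 10x Genomics 3' chemistry, so there is 1 library per condition, no replicate and no test. The files hold 9681 cells and 59176459 UMIs without butyrate, and 8932 cells and 58381292 UMIs with butyrate. Intervals are at 95% and cover counting error only. The libraries share 25 cell barcodes, which 2 and 3 of the recently activated cells carry.

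When antigen crosslinks the B cell receptor, or when CD40 or Toll-like receptors are engaged, a wave of genes is transcribed within minutes to hours, before the cell divides. It includes the EGR zinc finger factors, the orphan nuclear receptor Nr4a1 (Nur77), whose level is widely read as a report of antigen receptor signalling, the nuclear IκB protein Nfkbid, which works with NF-κB and is needed for several B cell responses, and Myc, which drives growth in cell mass ahead of division. Such cells are known to make more ribosomes, to take up nutrients, to display CD69, CD83 and CD86 and to lose proteins that keep a resting cell quiescent.

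The genes that define these cells are shown by the 250 bases before the start of transcription for the 3 of 5 that the RefSeq table holds (mouse build GRCm38.p6, which is mm10), because the windows carry binding motifs of the signalling routes to which these genes are known to answer. Each stretch lies between exons, inside an intron of a longer transcript of the same gene in GENCODE M21, and is given 5′ to 3′ on the plus strand. Capitals mark matches to 6 motifs sought on both strands, namely TGACGTCA (the full cyclic AMP response element, CRE), TGCGTCA (a CRE-like element), TGANTCA (AP-1), GGGANTTCC (NF-κB), GCGNGGGCG (EGR) and the CArG box of serum response factor; no match of these overlaps another. Nr4a1 is shown for its repeated CRE-like elements, Nfkbid for its NF-κB and CRE matches and Egr2 for its CArG box.
Nr4a1 (chr15:101266596-101266845): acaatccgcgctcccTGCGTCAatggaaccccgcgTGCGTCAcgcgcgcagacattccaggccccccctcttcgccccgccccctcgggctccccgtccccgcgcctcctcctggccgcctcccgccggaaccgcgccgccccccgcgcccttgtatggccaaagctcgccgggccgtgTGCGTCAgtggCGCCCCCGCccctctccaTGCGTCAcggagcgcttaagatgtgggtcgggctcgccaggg
Nfkbid (chr7:30422156-30422405): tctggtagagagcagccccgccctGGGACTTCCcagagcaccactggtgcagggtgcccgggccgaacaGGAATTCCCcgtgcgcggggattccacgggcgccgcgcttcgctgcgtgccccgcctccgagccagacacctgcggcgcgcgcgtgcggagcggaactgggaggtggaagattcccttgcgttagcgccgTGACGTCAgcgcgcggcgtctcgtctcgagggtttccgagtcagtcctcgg
Egr2 (chr10:67537619-67537868): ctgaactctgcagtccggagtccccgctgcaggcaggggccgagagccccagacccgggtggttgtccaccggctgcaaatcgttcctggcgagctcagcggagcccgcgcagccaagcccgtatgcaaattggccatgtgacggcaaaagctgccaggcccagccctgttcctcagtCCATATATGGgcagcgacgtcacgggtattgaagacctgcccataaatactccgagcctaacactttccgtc
The Nr4a1 window holds 4 CRE-like elements, the nearest ending 36 bases before the start, and 1 EGR match. Of 32851 RefSeq promoter windows of the same length, 1.75% hold a CRE-like element at all, and the Nr4a1 window is the only 1 that holds 4 or more. The cutoff of 4 is the count of this window itself, which was shown for these repeats, so its rarity is a description only. The Nfkbid window holds 2 NF-κB matches and a full CRE, which are found in 1.43% and 1.55% of windows, and the Egr2 window 1 CArG box, found in 1.47%. EGR matches occur in 4.70% of windows and AP-1 matches in 6.75%, and no AP-1 match lies in these 3 windows. A match is a description of the letters and not a bound site. Myc (chr15:61985391-61990374) and Egr3 (chr14:70077203-70082614) are named only.

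Most recently activated cells met the rule narrowly. Exactly 2 of the 5 markers were found in 546 of the 786 recently activated cells of the library without butyrate and in 641 of the 956 of the other, 3 in 181 and 224, 4 in 50 and 77, and all 5 in 9 and 14. The median cell held 3 UMIs of the 5 genes in both libraries, and 36.8% and 33.8% of cells held the minimum of 2. Just outside the rule stood the 1254 and 1252 cells with 1 marker, of which 77.7% and 75.7% held a single UMI of it. Myc was the marker found most often, in 67.2% and 60.3% of recently activated cells. Egr3 was found in 53.9% and 57.5%, Nfkbid in 53.4% and 60.1%, Nr4a1 in 51.0% and 50.3%, and Egr2 in 13.6% and 15.7%. Myc with Nfkbid was the pair found alone most often in both libraries (114 cells without and 125 with butyrate). Next came Myc with Egr3 (111) and Myc with Nr4a1 (92) without butyrate, and Egr3 with Nfkbid (107) and Myc with Egr3 (99) with butyrate. Summed over the cells, the markers stood at 205 and 185 CPM (UMIs of the gene scaled to 1e6 UMIs of the summed cells) for Myc, 160 and 167 for Egr3, 164 and 145 for Nfkbid, 148 and 128 for Nr4a1 and 29.3 and 31.9 for Egr2.

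Each marker was detected more often in cells that held more of the other 4. Nr4a1 was detected in 11.7% and 13.1% of B cells with none of the other 4 markers, in 17.3% and 19.1% of those with 1 of them and in 32.5% and 33.0% of those with 2 or more. Deeper cells show more of every gene, so all cells were also thinned to 2000 UMIs in 1 random draw, on which each thinned share and level here rests except the share of recently activated cells among gated B cells. With the classes rebuilt on the thinned counts, Nr4a1 was found in 6.35% and 8.14%, 12.1% and 10.1%, and 23.5% and 22.2% of these 3 classes, and the order also held for Myc, Egr2, Egr3 and Nfkbid in both libraries. Egr1, a close relative of Egr2 and Egr3 that the rule did not use, followed the same order in the thinned cells, from 4.75% and 7.67% of cells with 0 markers through 8.65% and 12.6% with 1 to 18.7% and 26.2% with 2 or more. T cells, which use the same genes on their own activation, held 2 or more of the markers in 6.74% and 7.12% of cells, and in 1.82% and 1.81% after thinning. At full depth T cells held Myc in 20.1% and 25.1% of cells, Nfkbid in 11.1% and 10.4% and Nr4a1 in 7.83% and 7.58%. Egr3 was found in 2.51% and 3.04% of T cells and Egr2 in 1.98% and 1.86%. B cells with Mki67 or Top2a, outside the gate, held 2 or more markers in 37.1% and 27.3%, and in 9.43% and 10% after thinning. B cells with Jchain did so in 21.7% and 22.1%, and in 4.85% and 4.41% after thinning.

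The share of recently activated cells among gated B cells was 21.1% without butyrate (786 of 3720, interval 19.8 to 22.5%) and 26.7% with butyrate (956 of 3587, 25.2 to 28.1%), a log2 ratio of 0.34 (0.22 to 0.45). This share depends on how deeply each cell was read. It was 10.7% and 11.3% in cells under 3000 UMIs, 13.5% and 19.1% from 3000 to 4000, 20.1% and 21.6% from 4000 to 5000, 25.1% and 25.8% from 5000 to 6000, 28.7% and 35.3% from 6000 to 8000 and 44.9% and 52.9% in cells of 8000 or more. The share was higher with butyrate in each of these ranges, but from 4000 to 6000 UMIs it was nearly level, and the intervals of both libraries overlapped in every range except 3000 to 4000 UMIs. Gated B cells had a median of 4341.5 UMIs without and 4610 with butyrate. At equal depth the share was smaller and so was the difference. Averaged exactly over all possible ways of thinning each cell to 2000 UMIs, it was 7.39% without (6.80 to 7.99%) and 8.86% with butyrate (8.24 to 9.48%), a log2 ratio of 0.26 (0.11 to 0.42), and at 3000 UMIs 12.2% and 14.9% (0.29, 0.15 to 0.43). Cells under these depths were left out, 46 and 18 gated B cells at 2000 UMIs and 373 and 186 at 3000 UMIs. A single random thinning to 2000 UMIs gave 8.14% and 8.35% (0.037), and a second one a log2 ratio of 0.17, so 1 draw is a poor guide to this difference. The markers differed in this, since Myc was detected in 26.4% of gated B cells in both libraries. Detection of Egr2, Egr3, Nfkbid and Nr4a1 in gated B cells had log2 ratios of 0.53, 0.34, 0.42 and 0.20. With at least 2 of the 4 markers other than Myc required, the share was 12.2% and 17.6% (0.53, 0.37 to 0.69). Cells with 3 or more markers made up 6.45% and 8.78% of gated B cells. Of all cells that passed the filters, recently activated cells were 8.28% and 11.1%. With 1 library of pooled mice per condition, a difference between mice, between captures and from butyrate cannot be told apart.

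**Figure D1:**
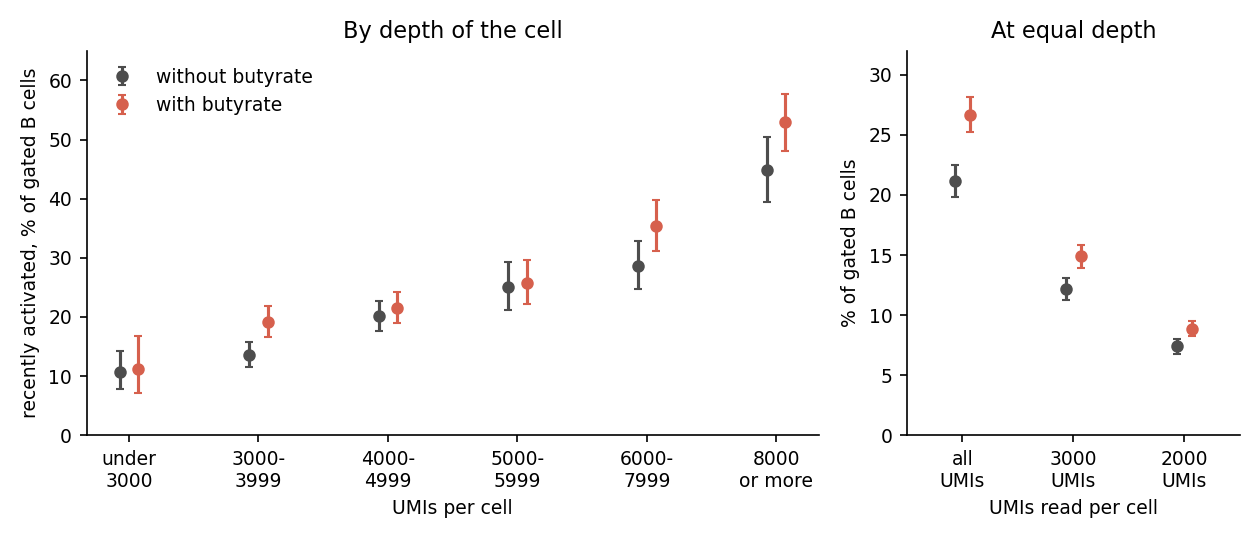
Share of gated B cells with 2 or more of the 5 markers (vertical axes, percent), by UMIs of the cell (left) and with all UMIs or averaged over all thinnings to 3000 or 2000 UMIs of the cells that reach that depth (right); grey is the library without and red the library with butyrate, and bars are 95% intervals of counting error. The share climbs from 10.7% and 11.3% to 44.9% and 52.9% with depth, and at 2000 UMIs stands at 7.39% and 8.86%.

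Genes that the rule did not use were compared between recently activated and 0-marker B cells within each library, as the log2 ratio of CPM + 10 of the summed UMIs. The median recently activated cell held 5036.5 UMIs without and 5388.5 with butyrate, against 4015 and 4227 in 0-marker cells. Of 8413 genes measured, 16 were more than 1.5-fold higher in both libraries (0.19%) and 2 more than 1.5-fold lower (0.0238%), and none went past 1.5-fold in opposite directions. Over B cells with 1 marker in place of 0, 3 of the 16 were past the fold, and with a pseudocount of 1 CPM 58 genes were, all 16 among them. Egr1 stood at 128 CPM in recently activated and 21.0 CPM in 0-marker cells without butyrate, and at 172 and 45.9 CPM with butyrate, log2 ratios of 2.16 and 1.70. Bcl2a1b, which encodes a survival protein of the BCL2 family, stood at 185 against 68.3 CPM and at 157 against 72.5 CPM (1.32 and 1.02). Its near copy Bcl2a1d showed 1.26 and 0.96, and as these copies can share reads their values are uncertain as to the copy. Ccnd2, the cyclin that carries B cells from rest into G1, stood at 213 against 81.2 CPM and at 172 against 81.6 CPM (1.29 and 0.99). Pim1, a kinase for survival and growth, showed 0.82 in both libraries, at 110 against 58.0 and 132 against 70.3 CPM. Irf4, the transcription factor whose level grades with receptor signal strength, showed 0.80 and 0.84, at 79.9 against 41.6 and 82.4 against 41.5 CPM. In each of these 6 genes both recently activated sums lay above both 0-marker sums. Others past the fold were Bhlhe40 (0.88 and 0.65), Ahr (0.85 and 0.83), which encodes the aryl hydrocarbon receptor, the histone demethylase Kdm6b (0.87 and 0.70), Mir155hg (0.84 and 0.69), the host transcript of miR-155, Marcksl1 (1.002 and 0.59), Rilpl2 (0.92 and 0.78), Fcrl5 (0.87 and 0.65), Rasgef1b (0.79 and 0.67), Tgif1 (0.74 and 0.64) and Nhp2 (0.68 and 0.62). Between cells of 4000 to 6000 UMIs only, with medians of 4759.5 and 4807 UMIs in recently activated and 4588 and 4630 in 0-marker cells, 26 genes were past the fold and 11 of the 16 were among them. Without the 5 richest cells of each sum 15 of the 16 stayed past the fold, Mir155hg being at 0.68 and 0.55.

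The lower end was weaker and rested on few cells. Both genes past 1.5-fold lower, Lyz2 (-1.82 and -0.69) and Fabp5 (-0.73 and -2.12), had 97.9% and 96.5% of their 0-marker UMIs without butyrate in 5 cells, and without the 5 richest cells of each sum neither was past the fold (-0.01 and -0.34 for Lyz2, 0.40 and -0.26 for Fabp5). S100a6, among the 10 abundant genes with the highest mean ratio at 0.20 without and 1.62 with butyrate, also lay in few cells. Its 5 richest cells held 38.3% and 42.5% of the recently activated and 63.7% and 46.6% of the 0-marker UMIs, and without them its ratio was 0.82 and 1.61. With cells chosen anew after thinning its mean ratio turned to -0.039. Among abundant genes the lowest ratios were those of Acp5 (-0.52 and -0.40), Ypel3 (-0.46 in both), Rnase6 (-0.43 and -0.48), Txnip (-0.46 and -0.45), Vpreb3 (-0.46 and -0.40), Neurl3 (-0.45 and -0.36), Cd55 (-0.38 and -0.42), March1 (-0.35 and -0.45), Mylip (-0.46 and -0.33) and Arhgap45 (-0.40 and -0.36). None of these passed 1.5-fold, and the 5 richest cells of a sum held at most 6.26% of its UMIs.

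**Figure D2:**
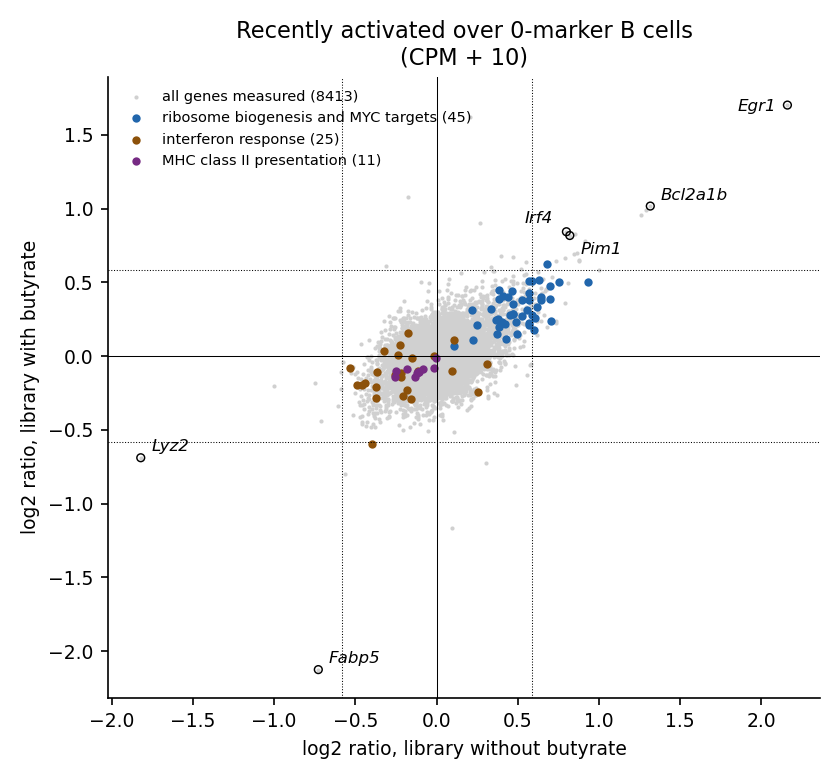
Log2 ratio of CPM + 10 in recently activated over 0-marker B cells for 8413 genes, in the library without butyrate (horizontal axis) and with butyrate (vertical axis); dotted lines mark 1.5-fold, and 3 gene lists are coloured. Egr1 lies furthest out at 2.16 and 1.70, the ribosome biogenesis genes all lie above 0 in both libraries, and Lyz2 and Fabp5, which rest on few cells, lie low.

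Of 21 measured immediate early genes and AP-1 subunits, 15 were above 0 in both libraries and none below 0 in both, where 2767 of 8413 genes were above 0 and 2598 below 0 in both, with medians of 0.21 and 0.22 beside 0.007 and 0.001 over all genes. Egr1 alone passed 1.5-fold. Fosb, a partner of JUN in AP-1, stood at 147 against 89.8 CPM and 193 against 132 CPM (0.65 and 0.52), and Junb at 875 against 732 and 997 against 817 CPM (0.25 and 0.29). Fos showed 0.31 and 0.40. Dusp1, a phosphatase that ends MAP kinase signalling, was level at 0.01 in both, and Btg2, Zfp36 and Jund lay between -0.07 and 0.04.

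NF-κB genes had medians of 0.28 and 0.13, with 11 of 17 above 0 in both libraries, none below 0 in both and none past 1.5-fold. Of all 8413 genes, 2767 were above 0 and 2598 below 0 in both. Rel, the subunit c-Rel that is induced by receptor signalling in B cells, stood at 364 against 218 CPM and at 301 against 204 CPM (0.71 and 0.54). Tnfaip3, the feedback inhibitor A20, showed 0.47 and 0.67, Nfkbiz 0.35 and 0.58 and Nfkbie 0.32 and 0.33. Rela, which most cells keep at a steady level, showed 0.16 and -0.05.

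Genes of activation surface proteins had medians of 0.17 and 0.18. Of them 10 of 14 were above 0 in both libraries, the other 4 below 0 in both and none past 1.5-fold. Over all 8413 genes, 2767 were above 0 and 2598 below 0 in both. Cd83, which holds MHC class II and CD86 at the surface, stood at 364 against 265 CPM and 417 against 340 CPM (0.45 and 0.29). It was detected in 73.3% and 79.6% of recently activated against 52.9% and 61.8% of 0-marker cells, and after thinning in 45.5% and 51.3% against 35.1% and 41.2%, while 3.26% and 4.15% of T cells held a UMI at full depth. Cd69, the early activation antigen that holds lymphocytes in the node, showed 0.27 and 0.22 and was found in 82.4% and 84.4% against 70.0% and 71.9% of cells, and in 76.0% and 70.0% of T cells, which also express it. After thinning Cd69 was found in 58.7% and 59.7% against 52.8% and 54.1% of cells. At full depth most 0-marker cells thus also carried Cd69 and Cd83 transcripts, while after thinning most held Cd69 but not Cd83. Icam1, an adhesion molecule, showed 0.67 and 0.44, Cd274 (PD-L1) 0.36 and 0.52, Cd86 0.21 and 0.14 and Tfrc, the transferrin receptor, 0.74 and 0.24, whereas Tnfrsf13c, the BAFF receptor, showed -0.17 and -0.12. Of 6 measured cytokine and chemokine genes, 2 were above and 2 below 0 in both libraries. Of 9 measured genes of the response to interleukin-4, 5 were above 0 and 3 below 0 in both libraries, with medians of 0.12 and 0.02, and Bhlhe40, a transcription factor, alone was past the fold. Il4i1, an amino acid oxidase, stood at 192 against 127 CPM and 250 against 179 CPM (0.57 and 0.46), while Fcer2a, the low-affinity IgE receptor CD23, showed -0.07 in both. Of 9 survival genes 3 were past the fold, beside 0.19% of all genes, namely Pim1 and the near copies Bcl2a1b and Bcl2a1d, which are not separate calls where they share reads, while Mcl1 (-0.02 and -0.03) and Bcl2 (-0.05 and -0.00) were level.

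Ribosome biogenesis genes and other known MYC targets lay above 0 throughout, though nearly all within 1.5-fold in at least 1 library. All 45 measured genes were above 0 in both libraries, beside 2767 of 8413 of all genes. The median was 0.49 without and 0.31 with butyrate. Nhp2, a protein of the ribonucleoproteins that modify ribosomal RNA, was the only 1 past 1.5-fold in both libraries, beside 0.19% of all genes. Ncl, the nucleolar protein nucleolin, stood at 952 against 561 CPM and 880 against 620 CPM (0.75 and 0.50), and Npm1, its partner in the nucleolus, at 1376 against 992 and 1294 against 1011 CPM (0.47 and 0.35). Srm, which makes the polyamine spermidine, showed 0.93 and 0.50, Nolc1 0.70 and 0.48 and Eif4a1, a helicase of translation initiation, 0.59 and 0.28. Myc, whose known targets this list holds, was 1 of the 5 genes that chose the cells. The 15 genes of glycolysis and nutrient uptake had medians of 0.20 and 0.11, with 13 above 0 in both libraries, led by Hk2 (0.63 and 0.39) and by Ldha, lactate dehydrogenase, at 226 against 149 and 195 against 151 CPM (0.57 and 0.35). The glucose transporter Slc2a1 showed 0.22 and 0.06. The 16 heat shock genes had medians of 0.25 and 0.09, with Hsp90ab1 at 0.52 and 0.38. S phase genes, which the exclusion of dividing cells bears on, had medians of 0.23 and -0.01.

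Of all 8413 genes, 2598 were below 0 and 2767 above 0 in both libraries. Genes of quiescence had medians of -0.21 and -0.09, with 9 of 15 below 0 in both libraries, 3 above and none past 1.5-fold. Its median over both libraries was -0.15 in all cells and -0.044 in cells of 4000 to 6000 UMIs, where 13 of its genes were measured. Txnip, an inhibitor of glucose uptake, stood at 147 against 205 CPM and 149 against 206 CPM, and Cdkn1b, the cell cycle inhibitor p27, at 85.3 against 109 and 81.6 against 109 CPM (-0.32 and -0.38). Tsc22d3 (GILZ) showed -0.37 and -0.30. Klf2, which maintains quiescence and recirculation, was -0.25 without and 0.02 with butyrate, and Pdcd4, an inhibitor of translation, went the other way at 0.44 and 0.41. Homing genes had medians of -0.09 and -0.14, and over both libraries -0.12 in all cells and -0.056 in those of 4000 to 6000 UMIs. S1pr4, a receptor for sphingosine 1-phosphate, showed -0.43 and -0.45, while Gpr183 (EBI2), which guides activated B cells to the edge of the follicle, was higher at 0.28 and 0.24.

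All 11 MHC class II genes were below 0 in both libraries, beside 2598 of 8413 of all genes, where 2767 were above 0. They were lower by little, with medians of -0.12 and -0.10, for instance Cd74 at 15298 against 16743 and 16714 against 18393 CPM. This list moved with depth, since its median over both libraries was -0.028 in cells of 4000 to 6000 UMIs and -0.0031 after thinning. Interferon response genes had medians of -0.22 and -0.11 with 16 of 25 below 0 in both libraries and 1 above, and in the depth-matched cells the median over both was -0.16. Rtp4 showed -0.53 and -0.08 and Ifit3 -0.40 and -0.59. B cell receptor components and coreceptors were level, with medians of -0.04 and -0.03 over 18 genes.

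The levels of Egr1, Bcl2a1b, Rel and Irf4 were ordered by the number of markers in a cell in both libraries. Egr1 stood at 21.0, 44.0, 75.1, 182 and 397 CPM in B cells with 0, 1, 2, 3 and 4 or 5 markers without butyrate, and at 45.9, 70.1, 128, 238 and 270 CPM with butyrate. Bcl2a1b stood at 68.3, 103, 131, 184 and 631 CPM and at 72.5, 95.5, 109, 186 and 348 CPM. Rel went from 218 and 204 CPM with 0 markers to 695 and 498 CPM with 4 or 5. Irf4 went from 41.6 and 41.5 to 146 and 99.4 CPM and Nfkbia, the inhibitor IκBα that NF-κB induces, from 310 and 281 to 804 and 517 CPM. Txnip was lower at the upper end, at 90.5 and 133 against 205 and 206 CPM. The list medians over 0-marker cells were 0.64 and 0.35 for NF-κB genes, 0.49 and 0.26 for immediate early genes and -0.42 and -0.40 for interferon genes in cells with 4 or 5 markers, which number 59 and 91. With butyrate the immediate early median was higher with 3 markers, at 0.36, than with 4 or 5. Ribosome biogenesis medians were not in order either, at 0.52 and 0.23 with 2 markers, 0.49 and 0.46 with 3 and 0.38 and 0.36 with 4 or 5. Depth differed too, with a median of 5131 and 7487 UMIs in the last class, and its part in this order was not tested.

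**Figure D3:**
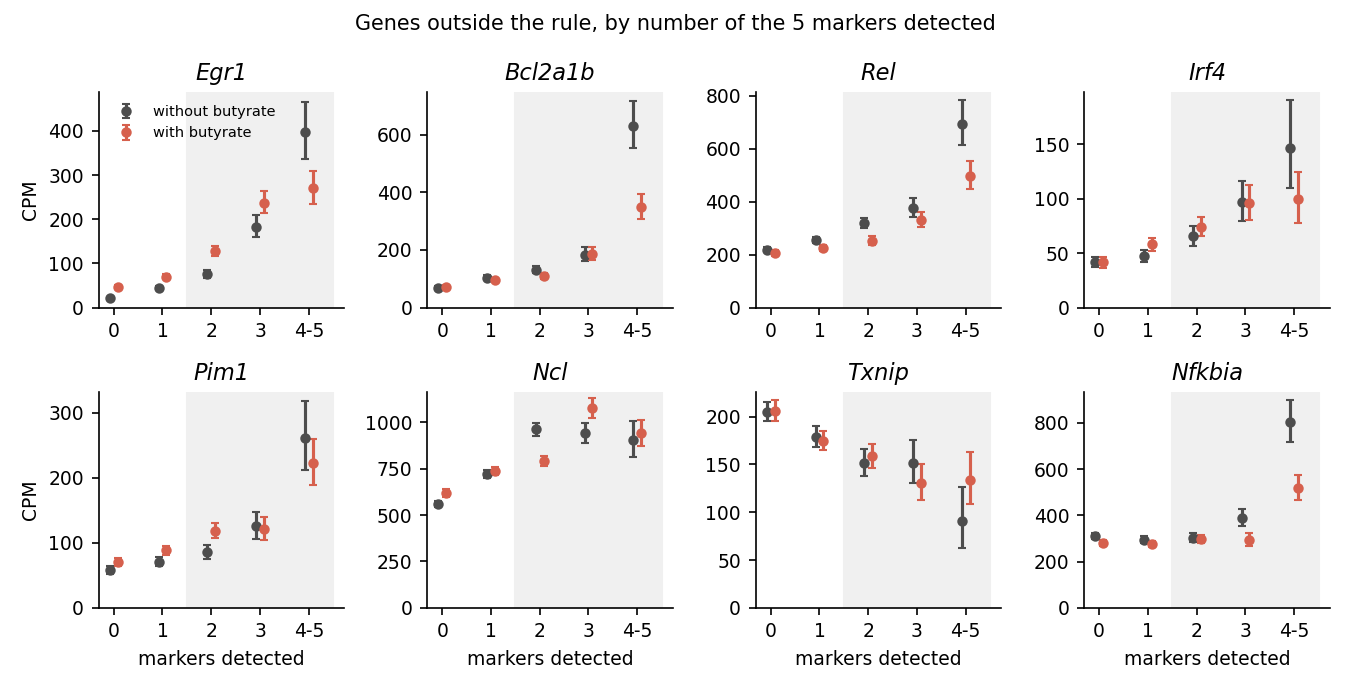
CPM of 8 genes outside the rule (vertical axes, each from 0) in gated B cells with 0, 1, 2, 3 and 4 or 5 of the markers (horizontal axes) in the libraries without (grey) and with butyrate (red); bars are exact Poisson 95% intervals and shaded classes are the recently activated cells. Egr1 and Bcl2a1b climb through all classes, Ncl is level from 2 or 3 markers on, Nfkbia is highest with 4 or 5 markers, and Txnip is lower with 4 or 5 markers than with 0.

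The most abundant heavy chain transcript of each recently activated cell was an unswitched one. The gate required Cd79a or Cd79b and removed cells with Jchain, Mki67 or Top2a, so it bears on follicular, plasma and dividing germinal center cells alike. All 8 follicular markers, Cd79a and Cd79b among them, had UMIs, with a summed level of 7210 and 7626 CPM against 7960 and 8426 CPM in 0-marker cells. Ighm was the most abundant heavy chain constant gene in 719 of 786 and 863 of 956 recently activated cells and Ighd in the other 67 and 93. Ighm RNA was also widespread outside B cells, since 68.2% and 72.4% of T cells held a UMI of it and 37.2% in both libraries after thinning, against 97.8% and 97.1% of recently activated cells after thinning. No cell had a switched isotype as its most abundant heavy chain, which allows up to 0.382% and 0.314% of cells. A UMI of any switched isotype was found in 21.2% and 6.69% of the cells, but T cells, which make no immunoglobulin, held one in 19.3% and 2.91%, and after thinning the shares were 8.85% and 2.10% in recently activated against 8.21% and 0.952% in T cells. Without butyrate the share in recently activated cells was thus close to that in T cells at equal depth. Bcl6, the master regulator of the germinal center, was detected in 8.52% and 13.1% of recently activated and 8.33% and 10.1% of 0-marker cells, and after thinning in 3.33% and 4.30% against 4.12% and 5.27%. T cells held a UMI of it in 3.20% and 4.08% of cells at full depth and in 1.09% and 1.64% after thinning. The 7 measured germinal center genes had medians of -0.07 and -0.13. Irf4 was the only 1 of 8 plasma cell differentiation genes past the fold. Among marginal zone and B-1 genes, Fcrl5 was past the fold, at 35.5 against 14.8 and 22.2 against 10.5 CPM, and Dtx1 showed 0.43 and 0.28, all 9 genes summing to 144 against 95.1 and 118 against 85.5 CPM.

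Summed markers of other cells in the recently activated cells ranged from 4.09 CPM for natural killer genes to 352 CPM for plasma cell genes. All 15 T cell genes had UMIs, at 225 and 223 CPM in sum against 257 and 248 CPM in 0-marker cells, and Cd2, which mouse B cells also express, was the most abundant at 128 and 132 CPM. The 7 natural killer genes summed to 4.09 and 7.55 CPM, with Ncr1 at 0. The 11 monocyte and macrophage genes summed to 328 and 242 CPM against 792 and 280 CPM, of which Apoe was 301 and 232 CPM, and Csf1r and Fcgr1 were at 0 with butyrate. The 10 dendritic cell genes summed to 129 and 94.4 CPM, led by Bst2, which interferon also induces. Of 6 plasma cell genes, summing to 352 and 351 CPM and led by Mzb1, Tnfrsf17 was at 0. The 10 genes of stroma and blood summed to 70.0 and 80.8 CPM, led by Pecam1. The part of these cells in the differences above was not tested. Without the cells with the highest Scrublet doublet scores, which removed 5.98% and 8.58% of recently activated and 3.51% and 2.83% of 0-marker cells, 17 genes were past 1.5-fold higher, all 16 among them.

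The libraries with and without butyrate were then compared within the recently activated cells. Of 8383 genes measured, 5 were more than 1.5-fold higher with butyrate (0.0596%) and 20 more than 1.5-fold lower (0.239%). With cells chosen anew after thinning to 2000 UMIs, 1 of the 5 and 4 of the 20 were past the fold. In 0-marker cells these were 5 (0.057%) and 29 (0.331%) of 8765. All 24 measured interferon genes were lower with butyrate, beside 3787 of 8383 of all genes. Of the interferon genes 5 were past the fold, beside 0.239% of all genes, and their median was -0.41 beside 0.02 over all genes. Ifi27l2a, an interferon-induced gene, stood at 779 CPM without and 438 CPM with butyrate (-0.82), Isg15, a ubiquitin-like modifier, at 40.0 and 16.4 CPM (-0.92), Irf7, which amplifies the response, at 38.1 and 20.0 CPM (-0.68), Xaf1 at 43.1 and 24.6 CPM (-0.62) and Ifit3 at 22.8 and 11.0 CPM (-0.64). Without the 5 richest cells of each sum Irf7 was at -0.56, within 1.5-fold, and the other 4 stayed past it. In 0-marker cells the list had a median of -0.45, which is near that in the recently activated cells. After thinning, 5 or more interferon UMIs were found in 43.8% and 24.3% of recently activated cells, in 46.7% and 28.8% of 0-marker cells and in 62.1% and 36.9% of T cells. Bst2 and Trim30a were among the 10 lowest abundant genes at -0.42 and -0.52, and with cells chosen anew after thinning Bst2 was at 0.028 and Trim30a at -0.72.

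Heat shock genes had a median of -0.31 in recently activated cells, with 12 of 16 below 0 and 3 past the fold, where 3787 of 8383 genes were below 0 and 0.239% past the fold. In 0-marker cells its median was -0.05. Hsph1, a chaperone of the HSP110 family, stood at 88.7 CPM without and 39.2 CPM with butyrate (-1.003), Dnaja1 at 528 and 323 CPM (-0.69) and Stip1 at 87.0 and 54.0 CPM (-0.60), against -0.63, -0.51 and -0.22 in 0-marker cells. Hspa8 (-0.49) and Hspd1 (-0.47) were also among the 10 lowest abundant genes. The difference between the cell classes was not tested. Among the 10 highest abundant genes were the cold-inducible RNA-binding proteins Cirbp, at 85.7 and 130 CPM (0.55), and Rbm3, at 579 and 798 CPM (0.46), which showed 0.50 and 0.43 in 0-marker cells. Heat shock, cold-inducible and immediate early genes are known to answer to the handling of tissue, and the part of handling in these differences was not tested.

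Immediate early genes outside the rule had a median of 0.12 with over without butyrate in both recently activated and 0-marker cells. Of 21 genes 14 were above 0 in recently activated cells, beside 4596 of 8383 of all genes, and none passed 1.5-fold. Zfp36, which encodes the mRNA decay factor tristetraprolin, stood at 271 and 396 CPM (0.53), Fos at 623 and 816 CPM (0.38) and Egr1 at 128 and 172 CPM (0.40). In 0-marker cells Egr1 stood at 21.0 and 45.9 CPM, a ratio of 0.85 that was past 1.5-fold there, and the difference between both classes was not tested. Klf2 stood at 1253 and 1675 CPM (0.42, against 0.15 in 0-marker cells), Snx29 at 82.5 and 117 CPM (0.46), Add3 at 110 and 149 CPM (0.40) and the unnamed transcript Gm26740 at 118 and 167 CPM (0.47). Of the 5 markers, Myc stood at -0.14, Nr4a1 at -0.19, Nfkbid at -0.16, Egr2 at 0.09 and Egr3 at 0.06, a description of the cells they chose. Of 11 MHC class II genes 10 were above 0 with over without butyrate in recently activated cells, and none passed 1.5-fold. Their median was 0.15 in recently activated and 0.14 in 0-marker cells. The interleukin-4 list had a median of 0.15 over 10 genes in recently activated cells, 0.26 and 0.19 over the 9 genes measured in both recently activated and 0-marker cells, and -0.13 in recently activated cells chosen anew after thinning, with Fcer2a at 336 and 415 CPM (0.30 in both classes). Ribosome biogenesis (-0.02), NF-κB (-0.03), activation surface (0.03), glycolysis (-0.03), quiescence (-0.03) and germinal center genes (0.01) had medians near that of all genes. In 0-marker cells these medians were, in the same order, 0.15, -0.05, 0.11, 0.01, -0.03 and 0.20, beside 0.03 over all genes. Of 45 ribosome biogenesis genes 31 were below 0 in recently activated cells, beside 3787 of 8383 of all genes.

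Other genes lower with butyrate included Zfp36l2, a relative of Zfp36, at 323 and 205 CPM (-0.63), the class Ib gene H2-Q7 at 340 and 228 CPM (-0.55) and Nrros at 134 and 95.7 CPM (-0.44). Sesn1, a sestrin that restrains mTORC1, stood at 97.3 and 54.7 CPM (-0.73) and the phosphatase gene Ptpn22 at 65.9 and 38.9 CPM (-0.63). Ighg1 at 15.7 and 1.15 CPM and Ighg2c at 12.9 and 0.16 CPM were also past the fold. T cells, which make no antibody, also held an Ighg1 UMI, at a share of 10.3% without and 0.196% with butyrate, so these 2 are not read as a difference between the B cells. Spp1, Fscn1, Fcer1g, Fabp5 and Lgals3, known from macrophages and dendritic cells, had 100%, 100%, 100%, 82.8% and 52.0% of their UMIs without butyrate in 5 recently activated cells, and without the 5 richest cells of each sum their ratios lay between -0.31 and 0.05. Among the 5 higher genes, Ahnak (1.05), S100a6 (0.91) and Myadm (0.70) were found in 6.80%, 11.7% and 5.86% of cells with butyrate, while Lifr (0.79) and Gm47283 (0.61) were also higher in 0-marker cells (0.60 and 0.82).

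**Figure D4:**
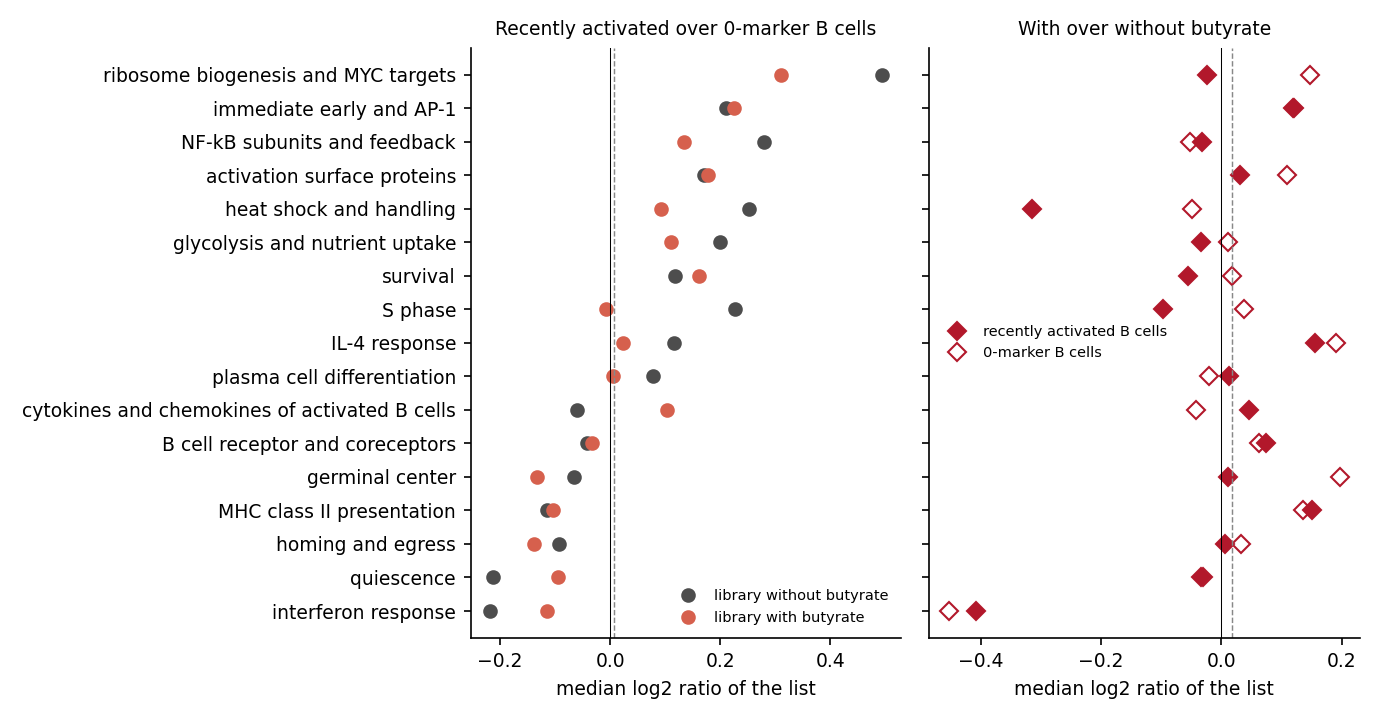
Median log2 ratio of CPM + 10 of 17 gene lists, on the left for recently activated over 0-marker B cells in the libraries without (grey) and with butyrate (red), and on the right for the library with over that without butyrate in recently activated (filled) and 0-marker B cells (open); dashed lines mark the median of all genes measured. Ribosome biogenesis is furthest right on the left panel (0.49 and 0.31), and interferon response is furthest left on the right panel in both classes (-0.41 and -0.45).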

How the data were processed

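Mediastinal lymph node cells of 2 libraries, 1 per condition with 4 mice pooled in each, were profiled by 10x Genomics single-cell RNA sequencing. The deposited values are UMI counts per gene and cell, which the authors made with Cell Ranger 6.0.1 on mm10 per the submitters' processing notes and did not normalize; the filtered matrices were used. Cells were kept at up to 10% mitochondrial UMIs and from 200 genes upward, 2 of the study's 3 criteria, leaving 9495 of 9681 and 8605 of 8932 cells. Unlike in the study, which excluded doublets, they were left in, and an alternative removed cells by Scrublet score (scanpy 1.11.5).

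Counts were summed over the cells of a class in each library and scaled to CPM. A gene was measured where its 2 sums held 50 UMIs or more together, and a gene counted as past the fold above 1.5-fold in the ratio of CPM + 10. With 1 library per condition no test was run. Shares have exact Clopper-Pearson and levels exact Poisson 95% intervals, which cover counting error only, and a count of 0 allows 3 counts. The shares averaged over all thinnings and the log2 ratios of shares have 95% intervals by normal approximation instead. For comparisons at equal depth each cell of that depth was thinned to 2000 UMIs, which left out 46 and 18 gated B cells. For the share of recently activated cells the average over all thinnings was computed exactly, and every other thinned value comes from 1 random draw. Abundant genes had 100 CPM or more in one of the groups compared. The rule for naming took the 10 highest and 10 lowest of these in each comparison, without the 5 markers and immunoglobulin genes, and members of the lists; the other genes past the fold were named after their values were seen. A few genes that these rules name are not reported here. On simulated counts of 8361 genes for the comparison with over without butyrate in recently activated cells, 192 of 192 genes changed by 1 on the log2 scale had the right direction, with a median error of 0.277, and 0% of unchanged genes passed the fold. The simulation gives no error rate for the genes called in the data. Without the 5 richest cells of each sum, all 5 higher and 14 of the 20 lower genes stayed past the fold there. The members, gene lists and motifs were chosen with earlier results of these data known. Alternatives changed the cell filters, markers, depth, pseudocount, minimum count and scaling. Python 3.11.15, numpy 2.4.6, pandas 2.3.3, scipy 1.17.1 and matplotlib 3.10.9 were used.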

Additional observations from a re-analysis of the deposited data

Results flagged for a closer look

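The log2 ratio with over without butyrate had opposite signs past 1.5-fold, or close to it, in recently activated and 0-marker B cells for 2 genes, and in neither case was the difference tested. S100a6 stood at 0.9103 in recently activated and -0.5061 in 0-marker cells, with 38.3% and 42.5% of its UMIs in recently activated cells and 63.7% and 46.6% of those in 0-marker cells held by 5 cells. Without the 5 richest cells of each sum these ratios were 0.78 and -0.01. Fscn1 stood at -0.6469 and 0.6149, and all of its UMIs in both classes lay in at most 5 cells of each library. Without the 5 richest cells of each sum both ratios were 0.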

How the results depend on the processing

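No paired analysis was possible because each condition had 1 library. The log2 share ratio of 0.34 moved in 3 of 16 alternatives, to 0.037 and 0.17 in single thinnings to 2000 UMIs and to 0.53 without Myc as a marker. With cells chosen anew and isotypes also read from the thinned counts, switched isotypes were found in 10.0% without and 1.34% with butyrate. At full depth these shares were 21.2% and 6.69%. The 16 genes higher than in 0-marker cells became 55 with 3 or more markers, 27 after thinning (11 shared), 58 with a pseudocount of 1 CPM, 3 over 1-marker cells and 26 in cells of 4000 to 6000 UMIs. The 2 lower genes became 4 without high Scrublet scores, 1 with at most 5% mitochondrial UMIs, at least 200 UMIs or equal weight for each cell, 7 with 3 or more markers, 11 after thinning, 12 with a pseudocount of 1 CPM, and 0 with 5 or more UMIs of Cd79a and Cd79b, over 1-marker cells, in cells of 4000 to 6000 UMIs or without the 5 richest cells. With butyrate, the 5 higher and 20 lower genes became 36 and 46 with 3 or more markers (2 and 10 of them shared), 56 and 47 after thinning (1 and 4 shared), 100 and 116 with a pseudocount of 1 CPM, and 10 and 34 when CPM left out ribosomal protein, mitochondrial and immunoglobulin genes, and the lower ones 12 with at least 200 UMIs. Of list medians over 0-marker cells 217 of 221 values moved by less than the median counting half-width of the list's genes, which was wide, from 0.0678 for MHC class II to 0.568 for germinal center genes, whose median went from -0.10 to 0.05 in cells of 4000 to 6000 UMIs. The others were immediate early (0.34) and survival genes (0.33) with 3 or more markers and MHC class II genes after thinning (-0.0031) and in cells of 4000 to 6000 UMIs (-0.028). Of those with over without butyrate 185 of 187 moved by less than theirs, the others being interleukin-4 (-0.13) and survival genes (0.14) after thinning. Ratios of the abundant genes named over 0-marker cells moved by more than their counting error in 53 of 280 values, most often over 1-marker cells, where they were smaller, and with 3 or more markers, and S100a6 turned to -0.039 after thinning. With over without butyrate 21 of 240 moved, among them Egr1, to 0.081 with 3 or more markers and 0.60 after thinning, and Bst2, to 0.028 after thinning. The causes were not tested. The exact thinning, the 4000 to 6000 UMI range and the removal of the richest cells or of shared barcodes were chosen after seeing the data. With pooled mice and 1 library per condition, no value here carries an error between mice.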
